A study of Mus musculus with 43 samples.

Results

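The sites described here are the CCCGGG sites whose methylation was lower at both folic acid (FA) doses than without FA in the non-dysplastic colonic epithelium of the first cohort. A site on chromosomes 1 to 19 was eligible when it had 20 or more reads in at least 4 libraries of each diet group, and it was chosen when its mean methylation was lower by 10 percentage points (points) or more on 2 mg FA and on 8 mg FA than on 0 mg FA. Of 17504 eligible sites, 409 were chosen (2.34%), out of 173449 listed sites. All mice were female Swiss Webster mice of 27 weeks of age that had received the carcinogen azoxymethane (AOM) and 4 cycles of dextran sulfate sodium (DSS), which inflames the colon. All ate chow with 2 mg/kg FA until randomization to 0, 2 or 8 mg/kg for 16 weeks, and mice on the 2 mg diet stayed on it. The first cohort held non-dysplastic epithelium on 0 mg (0ND, 5 libraries), 2 mg (2ND, 7 libraries) and 8 mg (8ND, 6 libraries). In the second cohort, polypoid dysplasia (P) was paired with non-dysplastic epithelium (ND), with 6 libraries each of 0ND, 0P and 8ND and 7 libraries of 8P. Each library came from cells microdissected by laser from fixed tissue, and the 8P group held 2 lesions of mouse 1856. The labels call all ND samples epithelial cells, whereas the study's results state that some non-dysplastic samples also held lamina propria. Which samples these were is not given in the labels, so epithelium here follows the labels. In the study's captions, samples with lamina propria have the same group size as the ND samples compared with polyps. The epithelium compared across all diets has a different one. A part of the lamina propria in an ND value, in a difference between cohorts or in a polyp minus ND difference cannot be told apart from that of the epithelium.

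Folate carries the carbon units from which S-adenosylmethionine, the methyl donor of DNA methyltransferases, is made. In mammals most CpG sites are methylated, CpG islands at active promoters are largely unmethylated, and partial loss of methylation is a common feature of colorectal tumors. DREAM reads methylation at CCCGGG: SmaI cuts unmethylated sites first, XmaI then cuts the methylated ones, and the fragment end left by each enzyme tells them apart. The values below are the methylated share of reads at a site in percent, adjusted with spiked standards of known methylation. Each value is a mean over all cells of a sample, so less methylation per cell and more cells of a less methylated type cannot be told apart.

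The cohorts are not independent animals. Epithelium from 8 mice, 3 on 0 mg and 5 on 8 mg, was present in both cohorts, and the second cohort added 3 mice on 0 mg and 1 mouse on 8 mg. Libraries held between 1488920 and 16923453 reads on sites. At the chosen sites the median number of reads per library was lowest in 8ND of the second cohort, at 43, and highest in 2ND, at 243. A site with 22 methylated reads of 43 has a 95% Wilson interval from 36.8% to 65.4%, whereas 122 of 243 gives 44.0% to 56.4%. These intervals cover counting error only, and single-site values from the second cohort's epithelium carry the widest. In the first cohort the adjustment multiplied the odds of methylation by 1.24 to 4.04, compared with 0.992 to 1.97 in the second. Reads on standards made up 44.8% and 48.3% of all reads in the 8ND libraries of mice 1841 and 1858 in the first cohort. Their part in the choice of sites is given with the first cohort's values.

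The chosen sites were mostly of intermediate methylation in the first cohort. The median of their group means was 68.6% in 0ND, 53.3% in 2ND and 50.9% in 8ND. These values chose the sites and are given as a description, without a test. Most eligible sites could not have been chosen, since 12732 of them (72.7%) were under 10% methylated in 0ND. Of the 4772 eligible sites at 10% or more in 0ND, 8.57% were chosen. The other 4363 sites at 10% or more are used below for comparison, and their median group means were 75.7%, 71.0% and 70.3% in 0ND, 2ND and 8ND. They were not matched by level, with 0ND quartiles of 39.0% and 91.8%, compared with 56.0% and 79.0% at the chosen sites. They are also sites that failed the rule, in partly the same mice as the second cohort. The part of level and choice in the comparisons with them was not tested. By level in 0ND, the chosen sites made up 19.7% of the sites from 50% to 70% and 14.0% of those from 70% to 90%. They made up only 1.30% of those from 10% to 30% and 1.30% of those at 90% or more. Sites higher by 10 points or more at both doses numbered 34.

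In adjusted percent the dose shape was close to a step between 0 and 2 mg, and less so in raw percent. The median adjusted difference from 0ND was -13.8 points on 2 mg and -16.1 points on 8 mg. The 2 mg difference was a median of 87.2% of the 8 mg difference. In raw percent the median differences at the same sites were -11.5 points on 2 mg and -17.4 points on 8 mg. By adjusted means, 8ND lay below 2ND at 287 sites (70.2%). The 8ND mean lay within 5 points of the 2ND mean at 269 sites (65.8%), was lower by more than 5 points at 122 (29.8%) and was higher by more than 5 points at 18 (4.40%). The median of 8ND minus 2ND was -1.96 points at the chosen sites and 0.18 points at the other sites at 10% or more. Because both doses were held to the same threshold against the same 0ND libraries, this shape is in part set by how the sites were chosen.

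**Figure D1:**
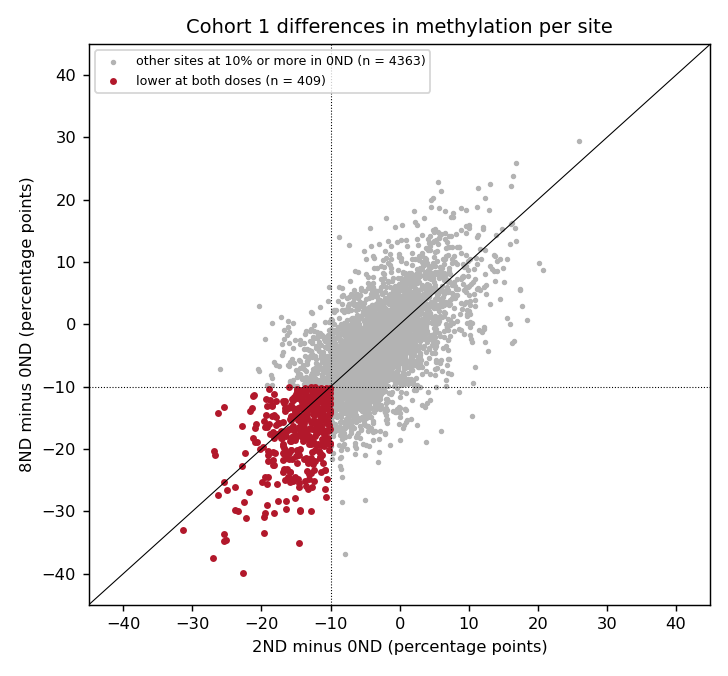
Differences of group means in the first cohort at each of 4772 sites at 10% or more in 0ND, with 2ND minus 0ND on the x axis and 8ND minus 0ND on the y axis, both in percentage points. Red points are the 409 sites at or under -10 points on both axes (dotted lines), grey points the other 4363 sites, and the diagonal marks equal differences. Most red points lie below the diagonal, with 8ND below 2ND at 287 sites.

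Averaged per library over the 226 chosen sites with enough reads in every first-cohort library, methylation in the 5 0ND libraries was 61.1%, 62.1%, 63.5%, 67.7% and 71.1% (65.1% ± 4.22, SD, n = 5). The 2ND libraries had a lowest value of 42.4%, a median of 51.1% and a highest value of 57.1% (50.6% ± 5.05, n = 7). The 8ND libraries had 42.6%, 48.0% and 52.5% in the same order (47.6% ± 4.30, n = 6). All 0ND libraries lay above all others, as the choice of the sites favors, while 2ND and 8ND overlapped. Over 2661 other sites at 10% or more the group means were 62.6%, 60.2% and 59.9%. The average over the chosen sites minus that over the other sites was 2.51 points in 0ND, -9.57 points in 2ND and -12.3 points in 8ND. In raw percent, before the standards were applied, the 0ND libraries ranged from 34.1% to 66.2% at the chosen sites (mean 47.8%), the 2ND libraries from 21.3% to 52.3% (mean 35.4%) and the 8ND libraries from 25.4% to 34.5% (mean 29.6%), so that the groups overlapped before the adjustment.

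The study's per-site criteria were also applied to the first cohort, as a description only. By a two-sided equal-variance test per site, with unadjusted p under 0.05 and a difference over 5 points, 276 of the 409 sites were called lower on 2 mg, where 4.08% of all eligible sites were called, and 290 on 8 mg, where 4.08% were called. The choice of sites used these contrasts, so nothing is read from the counts. At 18 sites every 0ND library lay above every 2ND and 8ND library, which was the case at 0.166% of eligible sites. In raw percent all 409 sites were lower at both doses, and 270 (66.0%) kept both differences at -10 points or less. The choice was sensitive to single libraries: 187 sites (45.7%) stayed chosen whichever library was left out. Without the 8ND libraries of mice 1841 and 1858, 201 of 13862 eligible sites would be chosen, 195 of them among the 409. At the edge of the threshold, the site at chromosome 11, position 56077396 (mm9) entered with differences of -10.01 and -10.2 points, and that at chromosome 9, position 49784624 with -10.03 and -12.8. Just outside were chromosome 2, position 163721538, with -9.99 and -13.7 points, and chromosome 17, position 75871896, with -9.95 and -19.5.

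The 10 sites with the strongest differences at both doses lay on 6 chromosomes and included both sites of 2 neighboring pairs. All positions are those of the files, on mm9, and no gene annotation of that build was used. At SmaI_mm9_154148 (chromosome 17, position 80548491) the 0ND libraries had 45.8%, 56.1%, 58.6%, 66.3% and 70.1%. The 2ND libraries had a lowest value of 10.8%, a median of 34.4% and a highest of 51.3%, and the 8ND libraries 16.8%, 22.1% and 26.8%. The 8ND libraries lay below all 0ND libraries, whereas 2ND overlapped both groups. Its partner SmaI_mm9_154147, at position 80548379, had means of 69.8%, 44.4% and 35.1% in 0ND, 2ND and 8ND.

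The largest difference on 2 mg was at SmaI_mm9_157154 (chromosome 18, position 39550590). Its 0ND libraries had 62.4%, 64.0%, 73.5%, 88.9% and 90.2%. Those of 2ND had a lowest value of 20.2%, a median of 48.0% and a highest of 58.3%, and those of 8ND 18.0%, 46.4% and 59.1%. Here all 0ND libraries lay above all others, and both doses reached about the same level, with means of 44.5% and 42.8%. The neighboring sites SmaI_mm9_58917 and SmaI_mm9_58918 (chromosome 6, positions 50328253 and 50328454) had means of 64.8% and 67.5% in 0ND, 39.3% and 42.4% in 2ND and 31.1% and 32.9% in 8ND. SmaI_mm9_73510 (chromosome 7, position 120327605) started lower and reached the lowest 8ND level of the 10, with means of 48.1%, 24.2% and 18.3%. The remaining sites were SmaI_mm9_88618 (chromosome 9, position 55937082), SmaI_mm9_72454 (chromosome 7, position 105335197), SmaI_mm9_59531 (chromosome 6, position 58478154) and SmaI_mm9_142569 (chromosome 16, position 10511439). Their 0ND means were 71.4%, 57.6%, 74.1% and 76.6%, and their 8ND means 44.0%, 31.6%, 48.8% and 50.0%.

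The chosen sites often came in pairs at short range. Sites no more than 1000 bases from another chosen site numbered 175 (42.8%), in 86 pairs and 1 group of 3, and 234 stood alone. Neighbors were 76 to 604 bases apart, with a median of 229 bases. Of 88 neighboring pairs, 86 were adjacent in the list of sites, and the larger read total of a pair exceeded the smaller by a median factor of 1.01. Adjacent cut sites can be the ends of the same sequenced fragment, so such pairs are not independent measurements. The 8 mg differences of a pair were a median of 3.47 points apart. Among sites at 10% or more with another such site within 1000 bases, the neighbor was chosen at 175 of 356 chosen sites (49.2%) and at 203 of 3675 other sites (5.52%). Across all 2094 neighboring pairs at 10% or more, the 8 mg differences correlated at r = 0.639 and the 2 mg differences at 0.575, as a description of sites that share fragments and libraries.

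Beyond 1000 bases the share of sites with a chosen site nearby was about that of the other sites. Another chosen site lay between 1000 and 10000 bases away for 3 chosen sites (0.733%), compared with 1.28% of the other sites at 10% or more. Up to 100000 bases the shares were 8.07% and 7.27%, and up to 1000000 bases 38.1% and 41.7%. By chromosome, the chosen sites were most numerous on chromosomes 11 (45), 4 (38) and 2 (35) and fewest on chromosome 19 (6). As a share of the sites at 10% or more they ranged from 4.71% on chromosome 12 to 12.9% on chromosome 9. The group of 3 spanned chromosome 9, positions 55936864 to 55937461. Its sites differed among themselves, with 0ND and 8ND means of 78.3% and 61.3% at SmaI_mm9_88617, 71.4% and 44.0% at SmaI_mm9_88618, and 56.0% and 26.1% at SmaI_mm9_88619.

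The second cohort, whose libraries took no part in the choice, shows how these sites behaved in other libraries. In its epithelium 272 of the 409 sites had enough reads in both diet groups to be tested. The 8ND minus 0ND difference had a median of -10.1 points (quartiles -17.7 and -3.57) and was below 0 at 232 sites (85.3%). At the 3377 other sites at 10% or more its median was -1.99 points, and over all 15075 sites tested it was 0. By the criteria above 52 chosen sites were lower on 8 mg (19.1%), compared with 1.42% of all sites tested and 4.12% of the other sites at 10% or more. None was higher, compared with 0.206% of all sites and 0.681% of the other sites at 10% or more. Of the 34 sites higher at both doses in the first cohort, 23 were tested in the second, none was called in either direction, and their median difference was -0.94 points.

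Per library, over the 117 chosen sites with enough reads in every second-cohort library, the 0ND libraries had a lowest value of 57.9%, a median of 58.8% and a highest of 68.0% (60.5% ± 3.86, n = 6). The 8ND libraries had 43.1%, 47.6% and 58.5% (48.8% ± 5.23, n = 6). The 8ND library of mouse 1858 overlapped the 0ND libraries, and the other 5 lay below them. Over 1546 other sites at 10% or more the group means were 61.8% and 59.2%. In the mice seen in both cohorts, 5 on 8 mg and 3 on 0 mg, the median difference over 316 chosen sites was -10.9 points, with 83.5% of sites below 0. In the mice new to the second cohort, 3 on 0 mg and only 1 on 8 mg, which gives no spread, it was -11.3 points over 260 sites, with 74.2% below 0. At the other sites at 10% or more the corresponding medians were -1.18 and -3.80 points. With the 5 8 mg mice that were in both cohorts set against the 3 new 0 mg mice, the median was -8.70 points over 327 chosen sites and -1.94 points at the other sites. Differences between these sets of mice were not tested.

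No site of the 15075 reached an adjusted p under 0.05 by limma with Benjamini-Hochberg adjustment, while 52 of the chosen sites were called by the unadjusted equal-variance test. Unadjusted limma called 55 of them lower (20.2%), compared with 1.5% of all sites tested. With mouse 1809, the 0ND library of highest average, left out, 36 of 262 chosen sites were called lower (13.7%), compared with 1.08% of all sites, and the median difference was -8.47 points.

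**Figure D2:**
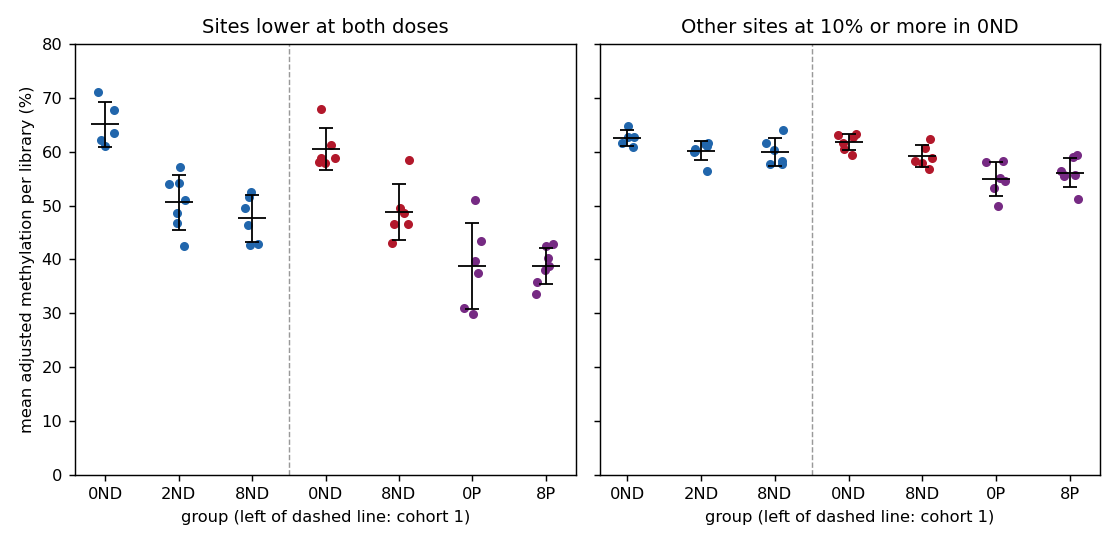
Mean adjusted methylation per library in percent, over the sites lower at both doses (left panel, 226 sites in the first cohort and 117 in the second) and over the other sites at 10% or more in 0ND (right panel, 2661 and 1546 sites). Each point is a library, the horizontal bar the group mean and the whisker the SD. In the left panel 0ND stands at 65.1% and 60.5%, above 8ND at 47.6% and 48.8% and above the polyps at 38.8%, and the right panel is flatter.

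The largest 8 mg differences in the second cohort were at 5 sites, of which 3 were also among the 10 named from the first cohort. At SmaI_mm9_72454 the 0ND libraries of the second cohort had a lowest value of 55.6%, a median of 68.1% and a highest of 80.9%, and the 8ND libraries 12.1%, 24.8% and 37.2%. The groups did not overlap, and their means differed by -41.9 points (two-sided exact permutation p = 0.00216, the smallest that 6 libraries against 6 allow, limma adjusted p = 0.211). At SmaI_mm9_58917 the 0ND libraries had 30.8%, 64.4% and 79.0%, and the 8ND libraries 0%, 22.3% and 29.4%. These groups did not overlap either, with a difference of -41.3 points (exact permutation p = 0.00216, limma adjusted p = 0.869). Its partner SmaI_mm9_58918 had means of 59.8% ± 16.3 and 21.7% ± 16.0 (n = 6 each), with overlapping libraries (exact permutation p = 0.00433).

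SmaI_mm9_55888 (chromosome 5, position 148598265) had 71.7% ± 27.8 in 0ND (n = 5) and 29.5% ± 18.7 in 8ND (n = 4), with an exact permutation p of 0.0476. SmaI_mm9_67969 (chromosome 7, position 31485269) had 75.6% ± 22.4 and 36.3% ± 13.3 (n = 5 each), with an exact permutation p of 0.0159. In the first cohort these sites had differed by less, from means of 59.1% and 77.1% in 0ND to 42.5% and 63.6% in 8ND. They were named for the size of their second-cohort difference, which favors a smaller one in other libraries. At 6 of the 272 tested sites all 0ND libraries lay above all 8ND libraries, compared with 0.226% of all sites tested. SmaI_mm9_154148, the site named first, had 52.4% ± 11.7 in 0ND and 30.7% ± 12.2 in 8ND of the second cohort (n = 6 each, exact permutation p = 0.0130).

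**Figure D3:**
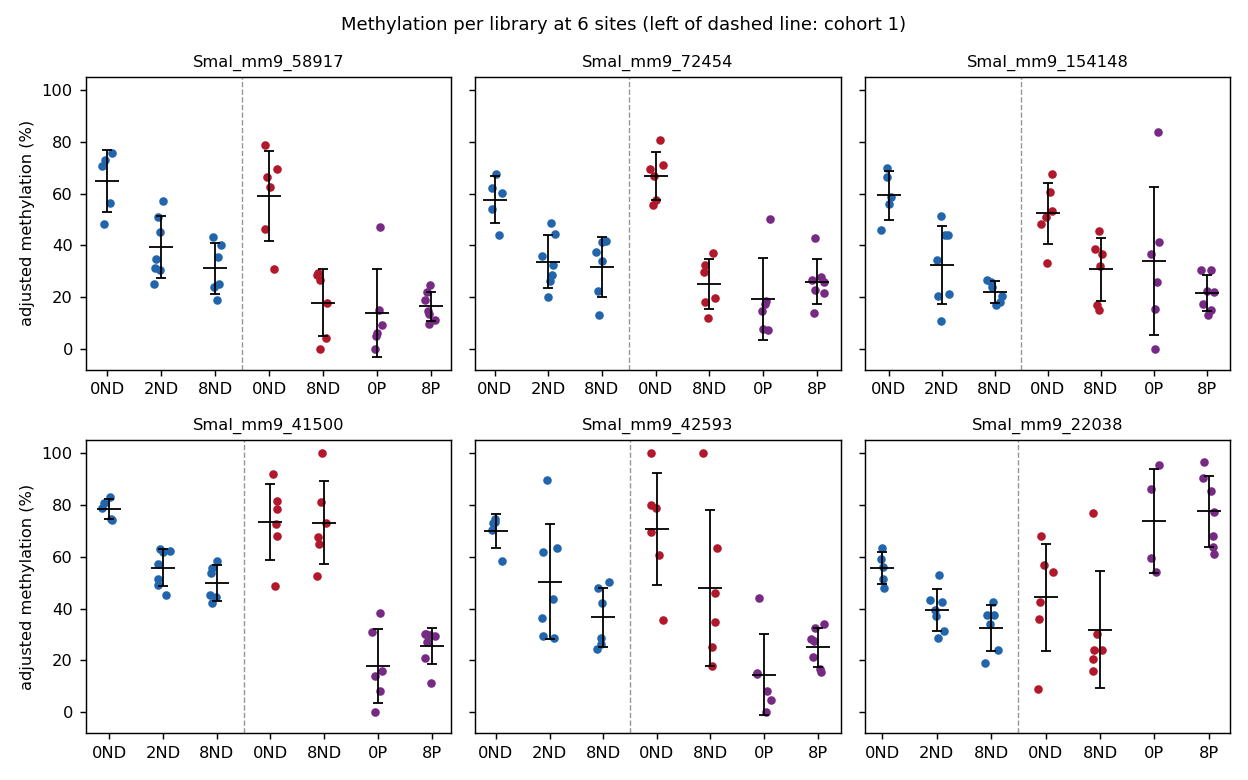
Adjusted methylation in percent in each library with 20 or more reads at 6 of the named sites, with the group mean (horizontal bar) and SD (whisker), for the 7 groups in the order 0ND, 2ND and 8ND of the first cohort and 0ND, 8ND, 0P and 8P of the second. At SmaI_mm9_58917 and SmaI_mm9_72454 8ND and the polyps of both diets all have means below 0ND in the second cohort, at SmaI_mm9_41500 the means there are 73.6% in 0ND, 73.3% in 8ND, 17.8% in 0P and 25.6% in 8P, and at SmaI_mm9_22038 the polyps have means of 74.0% and 77.6%.

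The polyp libraries differed from the epithelium libraries in how many sites they covered. Sites with 20 or more reads numbered 26446 to 44270 in 0P and 47798 to 54855 in 8P, compared with 17754 to 24475 in 0ND and 15893 to 21585 in 5 of the 6 8ND libraries. The 8ND library of mouse 1856 stood apart from its group at 48630 sites. Without it, 48 of 223 chosen sites were called lower in 8ND than in 0ND (21.5%), compared with 1.75% of all sites tested. The median difference over the chosen sites was then -9.72 points. Standards took 32.6% to 77.4% of all reads in 0P and 8.80% to 40.3% in 8P. In the second cohort's epithelium they took 6.98% to 52.7% in 0ND and 8.85% to 47.2% in 8ND. Over 8% of site reads fell on the 100 most-read sites in 3 0ND and 3 8ND libraries and in no polyp. Without these libraries, with fewer required per group, 33.3% of chosen sites were called lower in 0P and 25.5% in 8P. The shares of all sites tested were 2.86% and 2.73%. The part of these differences in coverage and standards in the polyp comparisons was not tested.

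In polyps the chosen sites were lower than in epithelium on both diets. In 0P compared with 0ND, 310 sites were tested and the median difference was -16.7 points, compared with -5.61 points at the other sites at 10% or more. Of the 310 sites, 126 were called lower (40.6%), compared with 4.71% of all sites tested and 16.3% of the other sites at 10% or more. The only site called higher was SmaI_mm9_110868 (chromosome 11, position 106190874), named after its values were seen, with 24.9% ± 14.2 in 0ND and 55.7% ± 29.3 in 0P. Of all sites tested 0.614% were called higher, and of the other sites at 10% or more 1.73%. With Benjamini-Hochberg adjustment of limma's p over all 16445 sites, 10 of the 32 sites called lower were chosen sites. With the mouse as a block, which pairs each polyp with its epithelium, none of the 16445 was called lower after adjustment. Without adjustment 115 of 310 chosen sites were called lower by limma with the block (37.1%), compared with 4.2% of all sites tested.

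In 8P compared with 8ND, 279 sites were tested and the median difference was -8.50 points, compared with -3.21 points at the other sites at 10% or more. Of the 279 sites, 65 were called lower (23.3%), compared with 3.65% of all sites tested and 14.3% of the other sites at 10% or more. Those called higher numbered 7 (2.51%), compared with 1.72% of all sites and 3.82% of the other sites at 10% or more. With adjustment over all 15917 sites, 4 of the 10 sites called lower were chosen sites. With the mouse as a block 1 site was called lower after adjustment, which was not a chosen one. Without adjustment 62 of 279 chosen sites were called lower by limma with the block (22.2%), compared with 3.53% of all sites tested. Without the 8ND library of mouse 1856, 57 of 223 chosen sites were called lower (25.6%), compared with 4.18% of all sites tested. The median difference over the chosen sites was then -9.08 points. These 2 comparisons each share an epithelium group with the diet comparison, so a low 8ND level or a high 0ND level enters more than 1 of them.

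**Figure D4:**
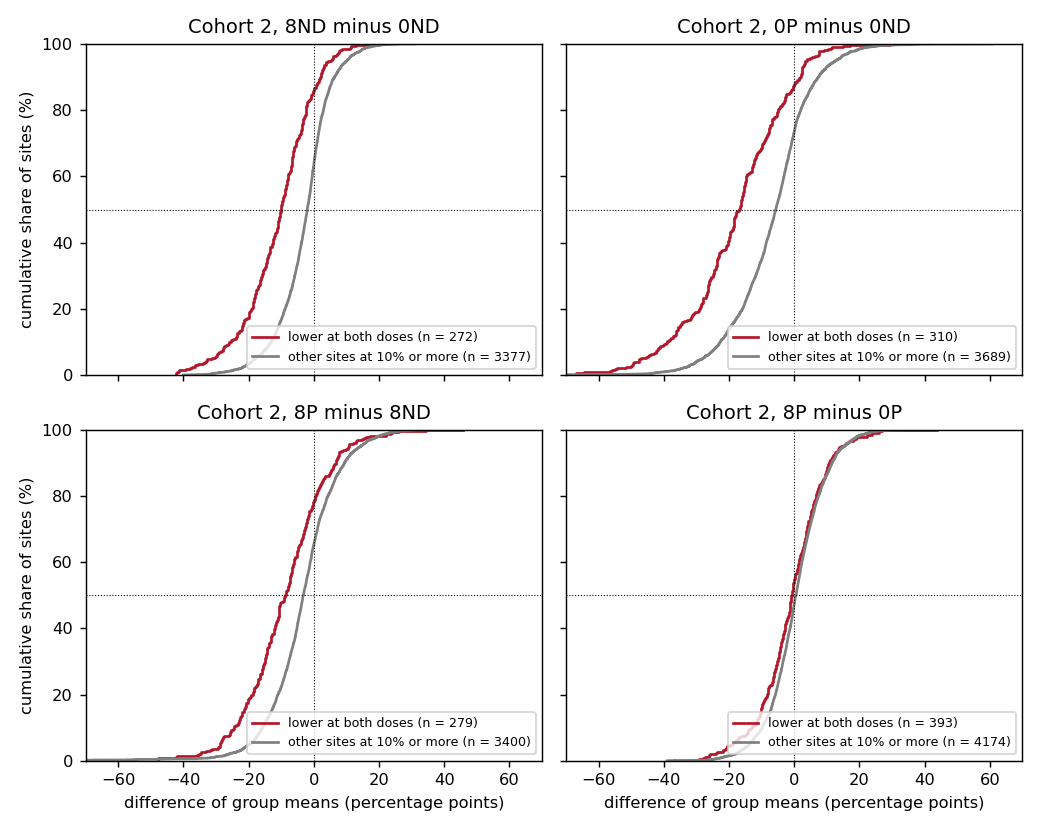
Cumulative share of sites in percent (y axis) by the difference of group means in percentage points (x axis) in the 4 comparisons of the second cohort, for the sites lower at both doses (red) and the other sites at 10% or more in 0ND (grey). The red curves cross 50% at -10.1, -16.7, -8.50 and -0.79 points and the grey curves at -1.99, -5.61, -3.21 and 0.55 points.

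The next comparison was between the polyps of both diets. Per library, over the 117 sites, the 0P libraries had a lowest value of 29.9%, a median of 38.6% and a highest of 51.1% (38.8% ± 7.95, n = 6). The 8P libraries had 33.5%, 38.8% and 42.8% (38.8% ± 3.38, n = 7), within the range of 0P. Site by site, 8P minus 0P had a median of -0.79 points over 393 sites, compared with 0.55 points at the other sites at 10% or more. This median moved with the values used, to -3.85 points in raw percent and to 0.64 points by a quasi-binomial logistic model of the reads. In raw percent 34 sites were called lower (8.65%), compared with 2.18% of all sites tested. In adjusted percent 16 sites were called lower (4.07%), compared with 1.33% of all sites tested and 2.87% of the other sites at 10% or more. Those called higher numbered 9 (2.29%), compared with 1.72% of all sites and 4.34% of the other sites at 10% or more. With limma's adjusted p none of the chosen sites was called lower, and 2 of all 22546 sites were.

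Over all libraries, the median step from epithelium to polyp at the chosen sites was smaller on 8 mg than on 0 mg, but not in every set of mice. In mice also in the first cohort, the median of 0P minus 0ND was -22.5 points and that of 8P minus 8ND -7.12 points. In mice new to the second cohort the order was the opposite, with -11.4 points for the 3 mice on 0 mg and -13.6 points for mouse 1800, the only one on 8 mg. These differences between sets of mice were not tested. The contrast (8P minus 8ND) minus (0P minus 0ND), taken over all libraries in limma, had a median of 8.92 points over 269 chosen sites, compared with 2.77 points at the other sites at 10% or more and 0.05 points over all sites. It was positive with unadjusted p under 0.05 and a size over 5 points at 36 chosen sites (13.4%), compared with 1.94% of all sites tested, and negative at none, compared with 0.425%. For this contrast, here and below, the share at the other sites at 10% or more was not computed. All sites tested are not matched by level to the chosen ones, since most eligible sites were under 10% methylated in 0ND of the first cohort. The same contrast can be written as (8P minus 0P) minus (8ND minus 0ND). Since 8P minus 0P had a median near 0, it largely restates the diet difference in epithelium, for which the sites had been chosen in partly the same mice. Without the 8ND library of mouse 1856, an alternative chosen after seeing the data, the median of the contrast was 9.25 points. It was then positive at 30 of 220 chosen sites (13.6%), compared with 2.32% of all sites tested. None of the 14815 sites passed Benjamini-Hochberg adjustment, and 36 chosen sites had an unadjusted p under 0.05. At SmaI_mm9_72454 the contrast was 48.5 points (limma, unadjusted p = 1.96e-05, adjusted p = 0.290). This site was named in part for its 8ND minus 0ND difference in the same libraries, which is a term of the contrast, so the unadjusted p is not separate support.

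Within mice the polyp was below the epithelium of the same mouse in every 0 mg pair. The median change over the chosen sites was -24.2 points in mouse 1805, -25.7 in 1807, -11.1 in 1808, -28.1 in 1809, -15.6 in 1820 and -8.45 in 1839. On 8 mg it was -13.6 points in mouse 1800, 0 in 1830, -8.22 in 1841, -8.23 in 1848, -16.4 in 1858, and -8.81 and -4.67 in the 2 lesions of mouse 1856. The ranges of both diets overlap, and mouse 1830 showed no median change over its 209 sites. At the other sites at 10% or more the medians ran from -7.63 to -1.19 points on 0 mg and from -5.41 to -0.72 on 8 mg.

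**Figure D5:**
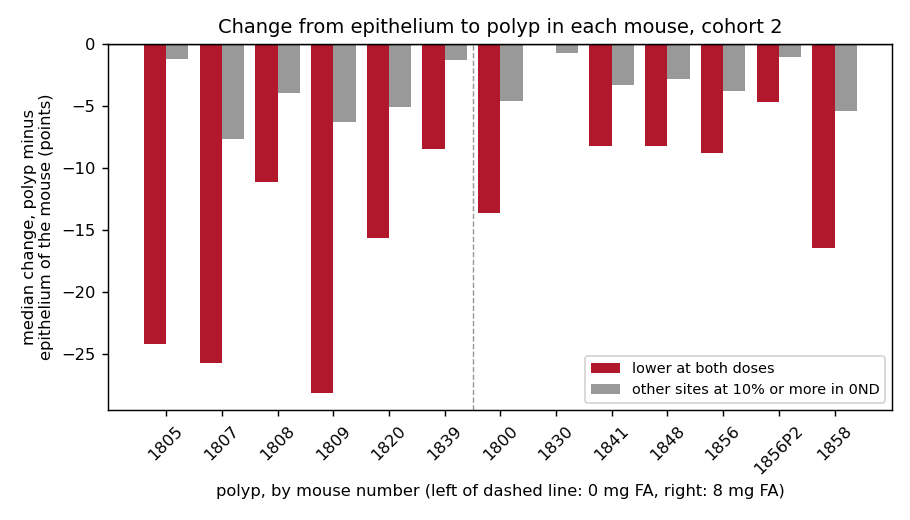
Median change in methylation from epithelium to polyp of the same mouse in percentage points, over the sites lower at both doses (red bars) and the other sites at 10% or more in 0ND (grey bars), for 6 polyps on 0 mg FA and 7 on 8 mg FA, 1856P2 being the other lesion of mouse 1856. Red bars exceed grey bars in size in all polyps but that of mouse 1830, which is at 0.

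At the named single sites the polyps followed more than 1 pattern, which the way the sites were named favors. SmaI_mm9_41500 (chromosome 4, position 132827052) was lower in the polyps of the second cohort. There its 0ND libraries had a lowest value of 48.7%, a median of 75.6% and a highest of 92.0%, its 8ND libraries 52.6%, 70.3% and 100%, and the diets differed by -0.35 points (exact permutation p = 0.965). The 0P libraries had 0%, 14.8% and 38.3%, and the 8P libraries 11.4%, 29.4% and 30.4%, below all epithelium libraries of the same diet. The differences were -55.8 points on 0 mg (exact permutation p = 0.00216, limma adjusted p = 0.0364) and -47.7 points on 8 mg (exact permutation p = 0.000583, limma adjusted p = 0.0279). With the mouse as a block the limma adjusted p-values were 0.329 and 0.292. The exact permutation p-values of polyp against epithelium, here and below, ignore that both came from the same mice. In the first cohort this site had had means of 78.4% in 0ND and 50.0% in 8ND without overlap, by which it was chosen. SmaI_mm9_163716 (chromosome 19, position 45789634) was likewise low in polyps, with means of 87.3% ± 5.47 in 0ND, 79.3% ± 7.83 in 8ND, 37.3% ± 25.7 in 0P (n = 6 each) and 43.5% ± 10.5 in 8P (n = 7). Its adjusted p in limma was 0.0325 on 8 mg, or 0.292 with the mouse as a block, and 0.118 on 0 mg.

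At other named sites epithelium on 8 mg lay near the polyps. SmaI_mm9_72454 and SmaI_mm9_58917 were named in part for a low 8ND compared with 0ND in these same libraries. SmaI_mm9_41500 and SmaI_mm9_163716 were named for their polyp minus epithelium differences, which a high epithelium level favors. The contrast between these sets of sites is thus in part set by the naming, and nothing is read from it. SmaI_mm9_72454 had 19.3% ± 15.9 in 0P (n = 6) and 25.9% ± 8.73 in 8P (n = 7), compared with 66.8% ± 9.36 in 0ND and 24.9% ± 9.69 in 8ND (n = 6 each). The 0P mean differed from the 0ND mean by -47.5 points (exact permutation p = 0.00216, limma adjusted p = 0.0427, or 0.270 with the mouse as a block), while 8P minus 8ND was 0.96 points (exact permutation p = 0.854). SmaI_mm9_58917 had 13.8% ± 17.1 in 0P and 16.4% ± 5.73 in 8P, with 8P minus 8ND at -1.39 points (exact permutation p = 0.795). The largest loss in 0P was at SmaI_mm9_157154, from 77.3% ± 8.84 in 0ND (n = 4) to 10.6% ± 15.9 in 0P (n = 6), a difference of -66.8 points (exact permutation p = 0.00476, limma adjusted p = 0.0368, or 0.364 with the mouse as a block). Its 8ND group had only 2 libraries with enough reads and was not tested. SmaI_mm9_73818 (chromosome 7, position 125642570), SmaI_mm9_42593 (chromosome 4, position 139078272) and SmaI_mm9_86119 (chromosome 9, position 19910312) were also called lower in 0P, with differences of -64.4, -56.3 and -54.9 points and limma adjusted p-values of 0.0600, 0.0821 and 0.0562.

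In 8P, SmaI_mm9_101852 (chromosome 10, position 124490616) and SmaI_mm9_120298 (chromosome 12, position 119748583) were called lower than in 8ND, with differences of -42.3 and -41.8 points, and neither passed adjustment (limma adjusted p = 0.227 and 0.230). SmaI_mm9_22038 (chromosome 2, position 166181508) had higher values in the polyps, on few reads. Its means were 44.5% ± 20.7 in 0ND and 31.9% ± 22.5 in 8ND (n = 6 each), and 74.0% ± 20.1 in 0P (n = 4) and 77.6% ± 13.8 in 8P (n = 7). The 8P libraries were higher than 8ND by 45.7 points (exact permutation p = 0.00408, limma adjusted p = 0.142). Its neighbor 234 bases away, SmaI_mm9_22037, had 8P minus 8ND at 0.97 points and 0P minus 0ND at -21.0 points. In the epithelium SmaI_mm9_22038 had about as many reads as this neighbor, with a ratio of 0.826 to 1.02 in the first cohort and of 0.903 to 1.07 in the second, apart from the 8ND library of mouse 1856 (58 reads compared with 318, a ratio of 0.182). In all polyps it had fewer, 8 to 66 compared with 115 to 495 in 0P and 24 to 131 compared with 121 to 827 in 8P, with ratios of 0.0286 to 0.374. The part of this loss of reads in the 45.7 points was not tested.

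Between polyps of the 2 diets, SmaI_mm9_149722 (chromosome 17, position 27862326) differed most. Of its 0P libraries with enough reads, 3 had 0% and 1 had 1.89%, and the 6 8P libraries had a lowest value of 25.9%, a median of 44.3% and a highest of 67.1%. The groups did not overlap and differed by 43.7 points (exact permutation p = 0.00476, limma adjusted p = 0.413), on 31 to 99 reads per library. Its neighbor SmaI_mm9_149721 had 8P minus 0P at -6.62 points. SmaI_mm9_15190 (chromosome 2, position 60444853) and SmaI_mm9_122692 (chromosome 13, position 43865547) were called lower in 8P, with differences of -28.0 and -29.3 points and exact permutation p-values of 0.0433 and 0.0556.

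Eligible sites near the chosen ones also differed in the same direction. The 203 other sites at 10% or more within 1000 bases of a chosen site had median differences of -5.79 points on 2 mg and -7.03 points on 8 mg in the first cohort, compared with -2.52 and -2.22 points at 4160 such sites farther away. In the second cohort, where 143 of the near sites were tested, 8ND minus 0ND had a median of -4.45 points, compared with -1.89 points at 3234 sites farther away. Many of the near sites share fragments with a chosen site.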

How the data were processed

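DREAM libraries of mouse colon were compared by diet, tissue and cohort, which were taken from the sample labels together with the mouse number. The authors deposited, for each CCCGGG site on mm9 and each library, the methylated and unmethylated read counts, a raw percent methylation and a percent adjusted with spiked standards. The submitters' processing notes name Bowtie2, SAMtools and mm9, whereas the methods name the human genome for mapping. The adjusted percent follows from the raw percent by a single odds factor per library. Sites on chromosomes 1 to 19 were used at 20 or more reads in at least 4 libraries of each group compared. From the adjusted percent, a two-sided equal-variance test per site was computed over all such sites in Python 3.11.15 (numpy 2.4.6, scipy 1.17.1, pandas 2.3.3), calling a site at unadjusted p under 0.05 and a difference over 5 points. Adjusted p-values and the test of the difference between diets came from limma 3.58.1 in R 4.3.3, with Benjamini-Hochberg adjustment over all sites tested. Exact permutation tests over libraries were two-sided. Like the equal-variance test, they did not pair the polyp and epithelium of a mouse. The per-site test was also run on simulated counts for 8ND and 0ND of the second cohort. It called 63% of sites lowered by 15 points, 95% of those lowered by 25 points and 0.551% of unchanged sites. The simulated spread between libraries was capped and reduced from that of 0ND, so these shares do not carry over to the data. P-values measure the spread between libraries, and the labels give different mouse numbers within each group apart from the 2 lesions of mouse 1856, which were counted as separate libraries.

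The sites described, the comparison lists and the tests were chosen with earlier results of these data known. Named sites were the 10 with the largest smaller difference of both doses, the members of any group of 3 or more within 1000 bases, the 5 called sites with the largest difference in 8ND against 0ND, in 0P against 0ND and in 8P against 8ND, and 3 in 8P against 0P, together with 2 sites on each side of the threshold. Polyps and epithelium of the second cohort pair by mouse number. Over all tested sites, the deviations from group means of polyp and epithelium correlated at a mean of 0.035 for 13 pairs of the same mouse and -0.0075 for 65 pairs of different mice. Alternatives varied coverage, values, centring, test, libraries and threshold. The available genome was GRCm38, in which only 2.82% of the listed positions carry CCCGGG, so no sequence and no gene annotation was used. Sites on the sex chromosomes were left out.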

Additional observations from a re-analysis of the deposited data

Results flagged for a closer look

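The average over the 117 sites with full coverage in the second cohort was 68.0% in the 0ND library of mouse 1809, compared with 57.9% to 61.2% in the other 5 0ND libraries, a gap larger than the critical value for 6 libraries. Among 7 groups looked at it was the only such library, and chance marks about 5% of groups in this way. The same mouse had 67.7% in the first cohort, the second highest of the 5 0ND libraries there. Over the chosen sites, the deviations of its libraries in both cohorts from their group means correlated at r = 0.295 over 339 sites, and the 8 mice present in both cohorts ranged from -0.041 to 0.295 with a mean of 0.073, compared with a mean of -0.0096 over 58 pairs of different mice. Leaving this library out, an alternative chosen after seeing the data, gave 13.7% of chosen sites lower in 8ND, 35.6% lower in 0P, and 10.8% with a positive difference between the diets' polyp changes. The corresponding shares of all sites tested were 1.08%, 4.02% and 1.79%.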

How the results depend on the processing

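The number of chosen sites depended on the limits set: it was 226 with 20 reads required in every first-cohort library, 1232 at -5 points, 106 at -15 points, 201 when 8ND libraries whose standards took over 30% of reads were dropped, and 325 (without a 2ND library) to 538 (without the 0ND library of mouse 1807) when single libraries were left out. Of these, the 201 came from only 13862 eligible sites, since all remaining 8ND libraries then had to be covered. At 50 reads, 29.0% of the chosen sites were called lower in 8ND against 0ND of the second cohort, compared with 1.35% of all sites. Fewer chosen sites were then tested (145). With Benjamini-Hochberg adjustment in limma the shares called lower were 0% in 8ND against 0ND, 3.23% in 0P against 0ND, 1.43% in 8P against 8ND and 0% in 8P against 0P. Over all sites tested these shares were 0%, 0.195%, 0.0628% and 0.00887%. In raw percent 8.65% of chosen sites were called lower in 8P against 0P, compared with 2.18% of all sites tested, and their median was -3.85 points. By a quasi-binomial logistic model of the reads that median was 0.64 points, and the cause was not tested. With the mouse as replicate block in limma, 37.1% of chosen sites were lower in 0P against 0ND and 22.2% in 8P against 8ND. A positive difference between the diets was found at 12.6%. The corresponding shares of all sites tested were 4.2%, 3.53% and 1.68%. After adjustment none of the 10 chosen sites called in 0P and none of the 4 called in 8P remained called, with limma adjusted p-values from 0.0896 to 0.364. No block was possible for 8ND against 0ND or 8P against 0P, which are different mice. Across these settings the other 76 planned counts and shares stayed within 1.5 times the reported value. Of 79 values for the named sites, 78 kept their direction and call, and SmaI_mm9_15190 no longer passed under the logistic model (-17.2 points). Epithelium of the second cohort, with a median of 43 reads per site in 8ND, limits single-site statements most.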
